A study of Mus musculus with 26 samples.

Results

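The total RNA of brown fat from wild-type mice held in the cold was profiled in 4 libraries, chosen as every library that the labels describe as total RNA of wild-type brown adipose tissue. They are 4 of the 12 brown fat libraries and 4 of the 26 samples of the series. The series asks what the RNA-binding protein Imp2, encoded by Igf2bp2, binds and changes in brown fat and liver. All brown fat came from 10-week-old males on a C57Bl/6J background, fed normal chow and kept at 4 °C overnight, so no warm group stands beside the cold one. The 2 knockout total RNA libraries used for comparison came from Imp2-/- mice, bred with their wild-type littermates from heterozygous parents, and the immunoprecipitates were not used. Nothing in the labels ties each library to an animal of its own, so p-values here measure the spread between libraries, which may be technical.

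The libraries carry the submitters' sample numbers. Libraries 20 and 15 stand in a broad count table of 9378 named genes, with 2701308 and 1466567 counts. Libraries 17 and 16 stand in a selected table of 1189 named genes, all of which the broad table also lists, with 1424023 and 2004064 counts. The knockout libraries 18 and 19 stand in that selected table too, with 2489244 and 4916163 counts. The lowest count of any listed transcript was 4 in library 20 and 2 in library 15, but over 100 in libraries 17 and 16, so a gene that is not listed is not shown to be absent. In libraries 20, 15, 17 and 16, 1 noncoding transcript without a symbol took 10.78%, 15.8%, 29.12% and 12.34% of all listed counts. It was left out of every share given here.

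Brown fat burns fatty acids to make heat. Its adipocytes are packed with mitochondria, and noradrenaline released in the cold starts lipolysis and switches on uncoupling protein 1, which lets protons return to the mitochondrial matrix without making ATP. The tissue also takes up circulating lipid and makes new fatty acids, which refill its droplets. Fabp4, a fatty acid carrier of all adipocytes, Ucp1, the uncoupling protein, and Cox8b, a cytochrome c oxidase subunit of brown fat and muscle, served as markers of the tissue. Their transcripts NM_024406, NM_009463 and NM_007751 belong to genes at chromosome 3, 10204342 to 10208616, chromosome 8, 83290348 to 83298456, and chromosome 7, 140898942 to 140900446 in RefSeq's GRCm38.p6 annotation, the assembly that mm10 names.

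The promoters of 4 abundant genes are shown because Ucp1 and Cox8b marked the tissue, Fasn varied among libraries and Thrsp was among the steadiest genes. Each runs 5′ to 3′ on the gene's own strand in build GRCm38.p6, from 250 bases before to 50 after a start of the gene. For Ucp1, Cox8b and Thrsp that start is the one of their RefSeq transcripts. The Fasn window lies inside its RefSeq transcript, which spans 120805958 to 120825166 on the minus strand. It is therefore not upstream of that transcript's start. Capitals mark TATAAA or CCAAT on either strand.
Ucp1, chr8:83290098-83290397, plus strand: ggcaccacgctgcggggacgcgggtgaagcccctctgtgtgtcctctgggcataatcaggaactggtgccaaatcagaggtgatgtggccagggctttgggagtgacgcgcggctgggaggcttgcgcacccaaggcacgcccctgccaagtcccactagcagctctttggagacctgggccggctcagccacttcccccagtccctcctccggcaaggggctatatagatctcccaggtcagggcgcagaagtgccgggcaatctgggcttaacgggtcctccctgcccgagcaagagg
Cox8b, chr7:140900397-140900696, minus strand: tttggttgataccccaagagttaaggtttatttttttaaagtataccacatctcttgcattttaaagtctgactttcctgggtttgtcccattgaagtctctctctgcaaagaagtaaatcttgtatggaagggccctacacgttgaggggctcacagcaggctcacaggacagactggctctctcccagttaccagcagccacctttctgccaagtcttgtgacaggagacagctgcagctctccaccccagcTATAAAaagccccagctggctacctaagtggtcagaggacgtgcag
Fasn, chr11:120824498-120824797, minus strand: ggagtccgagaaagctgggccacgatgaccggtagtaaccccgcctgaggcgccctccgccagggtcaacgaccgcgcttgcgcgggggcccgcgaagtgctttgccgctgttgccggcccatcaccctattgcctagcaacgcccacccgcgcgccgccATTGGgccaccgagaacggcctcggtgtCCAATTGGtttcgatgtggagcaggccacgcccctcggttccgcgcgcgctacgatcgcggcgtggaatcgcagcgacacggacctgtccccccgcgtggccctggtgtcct
Thrsp, chr7:97417501-97417800, minus strand: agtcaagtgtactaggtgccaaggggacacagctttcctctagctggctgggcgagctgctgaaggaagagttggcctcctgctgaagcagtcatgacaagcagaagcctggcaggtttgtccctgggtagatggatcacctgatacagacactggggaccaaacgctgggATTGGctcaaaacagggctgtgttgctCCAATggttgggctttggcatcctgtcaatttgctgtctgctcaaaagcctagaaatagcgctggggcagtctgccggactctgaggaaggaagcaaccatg
Cox8b held TATAAA from position +5 on its own strand. Fasn positions count from the start used for its window. Fasn held CCAAT from position -62 on its own strand and at -90 and -59 on the opposite strand. The -62 and -59 matches overlap. Thrsp held CCAAT at -52 on its own strand and at -79 on the opposite strand. Ucp1 held neither run of letters in this window. Of 32851 promoters of the same length, 13.6% held TATAAA and 37.4% held CCAAT on either strand. A match of letters is a description and does not show a binding site.

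Genes of lipid synthesis and capture were among the most-read. CPM is the count of a gene as a share of the counts of all named genes in its library, multiplied by 1000000. Scd1, which desaturates newly made fatty acids, took the most reads in both libraries of the broad table, at 48620 CPM in library 20 and 59330 CPM in library 15. Lpl, the lipase that frees fatty acids from circulating triglyceride, had 24810 CPM in library 20 and 33320 CPM in library 15. Fasn, the fatty acid synthase, had 26470 CPM in library 20 and 16100 CPM in library 15, which gave it ranks 3 and 6. These values are shares of reads, and a long transcript yields more reads than a short one at the same number of molecules, so the ranks order genes by reads and not by molecules.

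Among the 20 genes with the most reads, 5 belonged to lipid synthesis. Besides Scd1 and Fasn they were Gpd1, which makes the glycerol backbone of triglyceride, Thrsp, a regulator of lipogenesis, and Elovl6, a fatty acid elongase. Gpd1 had 11010 CPM in library 20 and 8924 CPM in library 15. Thrsp had 7164 CPM in library 20 and 6632 CPM in library 15. Elovl6 had 5246 CPM in library 20 and 4325 CPM in library 15. All 3 thus lay within 1.5-fold between the libraries.

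Respiratory chain subunits took another 5 of those 20 places. They were Ndufa2 of complex I, Uqcrq and Uqcr10 of complex III, and Cox8b and Cox4i1 of complex IV. Their CPM ran from 6225 to 8168 in library 20 and from 4288 to 7368 in library 15. Etfb, which passes electrons from fatty acid oxidation to the chain, had 5919 CPM in library 20 and 5091 CPM in library 15. Aldoa, the glycolytic aldolase, had 6778 CPM in library 20 and 5124 CPM in library 15.

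The 3 marker genes all stood among the 20. Cox8b had 8168 CPM in library 20 and 5115 CPM in library 15, at ranks 8 and 14. Ucp1 had 5200 CPM in library 20 and 5807 CPM in library 15, at ranks 23 and 10. Fabp4 had 4794 CPM in library 20 and 4753 CPM in library 15, at ranks 25 and 16. The log2 ratio of library 20 over library 15 was 0.68 for Cox8b, -0.16 for Ucp1 and 0.01 for Fabp4.

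The antioxidant and translation genes Gpx3 and Lars2 and the droplet genes Cidea and Pnpla2 stood among the same 20. Gpx3, a secreted glutathione peroxidase, had 14100 CPM in library 20 and 18210 CPM in library 15. Lars2, the mitochondrial leucyl-tRNA synthetase, had 28170 CPM in library 20 and 32980 CPM in library 15. Lars2 counts came to 18.6% and 13.97% of those of the unnamed noncoding transcript in libraries 20 and 15. Whether the Lars2 reads came from its own mRNA was not tested. Cidea, a lipid droplet protein of brown adipocytes, had 6590 CPM in library 20 and 4285 CPM in library 15, and Pnpla2, the first lipase of lipolysis, had 5237 CPM in library 20 and 4752 CPM in library 15.

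**Figure D1:**
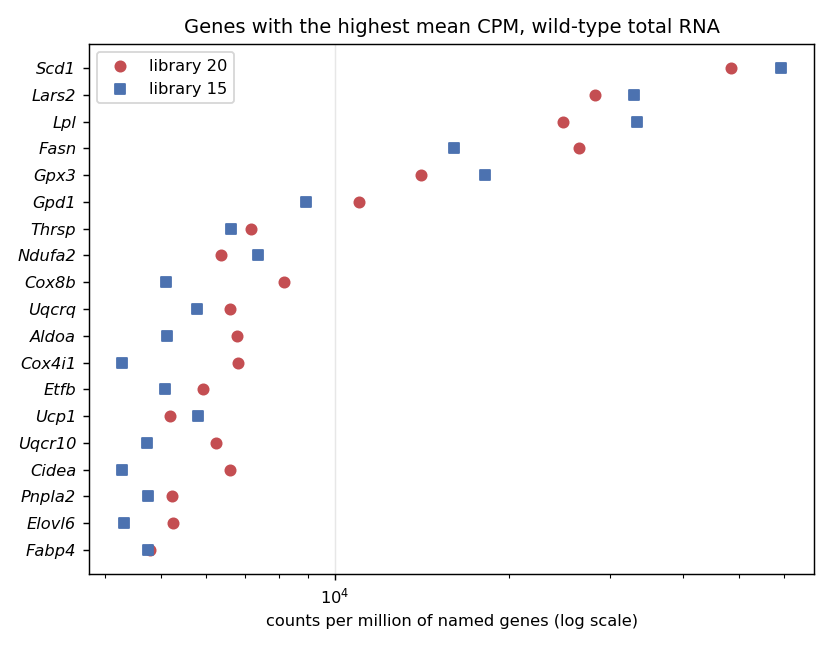
19 of the 20 genes with the highest mean CPM, with library 20 as circles and library 15 as squares on a log axis. Scd1 stands apart at 48620 and 59330 CPM, and most other genes lie between 4285 and 11010 CPM.

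Reads were concentrated in few genes. The 10 most-read genes held 19.46% of the counts of library 20 (95% exact binomial interval 19.41 to 19.5%) and 22.48% of those of library 15 (22.41 to 22.55%). In all, 142 genes held 50% of the counts of library 20 and 143 genes held 50% of those of library 15. The top-10 lists shared 8 genes, the top-100 lists 82 and the top-1000 lists 880. At the other end, 768 genes of library 20 and 2031 genes of library 15 had fewer than 10 counts. Such intervals cover counting error only, since reads made by PCR are not independent molecules.

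By function, oxidative phosphorylation and lipid metabolism held the most reads among 30 gene lists. The 82 listed genes of the respiratory chain and ATP synthase took 13.65% of the counts of library 20 and 10.04% of those of library 15, and 35 of the 82 had a mean of 1000 CPM or more, against 137 of all 9378 genes. All 289 mitochondrial genes together, with the citric acid cycle, fatty acid oxidation, import, carriers and mitochondrial ribosomes, took 20.94% in library 20 and 16.85% in library 15. The 54 genes of lipid synthesis, capture and droplets took 16.29% in library 20 and 16.18% in library 15. Lists share some genes, so their shares do not add up to a whole.

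Within oxidative phosphorylation the largest share was that of complex I, the NADH dehydrogenase, with 4.458% in library 20 and 3.617% in library 15. ATP synthase took 3.204% in library 20 and 1.85% in library 15. Complex IV, cytochrome c oxidase, took 3.042% in library 20 and 2.195% in library 15, and complex III took 2.584% in library 20 and 2.04% in library 15. Complex II, which also belongs to the citric acid cycle, took 0.359% in library 20 and 0.334% in library 15. All 28 names listed for genes of the mitochondrial genome were missing from both tables, so these shares hold nuclear-encoded subunits only.

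Subunits of 1 complex differed widely in reads. In complex IV, Cox4i1 had 6803 CPM in library 20 and 4288 CPM in library 15, while Cox7c had 9.625 CPM in library 20 and 6.137 CPM in library 15. In ATP synthase, Atp5a1, the catalytic alpha subunit, had 4347 CPM in library 20 and 3647 CPM in library 15, while Atp5l had 9.995 CPM in library 20 and 4.091 CPM in library 15. Atp5g1 and Atp5g2 of the ring were not listed, nor was Gapdh of glycolysis. Genes such as Gapdh and many ribosomal protein genes have near-identical copies elsewhere in the genome, so their counts are uncertain where reads could not be placed.

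Lipid synthesis took 10.97% of the counts of library 20 and 10.41% of those of library 15, most of it from Scd1, Fasn, Gpd1, Thrsp and Elovl6. Slc25a1, which exports citrate for lipid synthesis, had 2748 CPM in library 20 and 1699 CPM in library 15, and Acaca, acetyl-CoA carboxylase, had 1473 CPM in library 20 and 1155 CPM in library 15. Fatty acid capture took 3.643% in library 20 and 4.26% in library 15, led by Lpl and Fabp4. Lipolysis and droplet genes took 1.678% in library 20 and 1.513% in library 15. Plin2, a droplet coat protein, had 1165 CPM in library 20 and 1771 CPM in library 15, and Lipe, hormone-sensitive lipase, had 915.9 CPM in library 20 and 926.7 CPM in library 15.

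Fuel oxidation held smaller shares. Fatty acid oxidation took 2.349% in library 20 and 2.153% in library 15, led by Etfb, then Acaa2, a mitochondrial thiolase, with 4234 CPM in library 20 and 3000 CPM in library 15. The citric acid cycle took 1.503% in library 20 and 1.372% in library 15, with Ogdh, oxoglutarate dehydrogenase, at 1922 CPM in library 20 and 2463 CPM in library 15. Glucose uptake and glycolysis took 2.065% in library 20 and 1.826% in library 15. Breakdown of branched-chain amino acids took 0.482% in library 20 and 0.496% in library 15. Bckdha of the branched-chain ketoacid dehydrogenase was its most-read member, with 1568 CPM in library 20 and 1493 CPM in library 15.

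The list of thermogenic and brown fat regulators spanned a wide range of reads. Of 32 genes in that list, 26 were listed and took 2.853% in library 20 and 2.585% in library 15, most of it from Cox8b, Ucp1, Cidea and Kcnk3. Kcnk3, a potassium channel of brown adipocytes, had 2106 CPM in library 20 and 3878 CPM in library 15. Dio2, the deiodinase that activates thyroid hormone, had 161 CPM in library 20 and 195.7 CPM in library 15. Ppargc1a, a coactivator of mitochondrial genes, had 28.13 CPM in library 20 and 27.27 CPM in library 15, and Prdm16, a factor of brown fat identity, had 7.774 CPM in library 20 and 13.64 CPM in library 15. Adrb3, the adipocyte adrenergic receptor, had 109.9 CPM in library 20 and 118.6 CPM in library 15. Fgf21, Zic1, Ebf2, Esrrg, Bmp8b and Adrb1 were not listed.

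The remaining lists described here each held less than oxidative phosphorylation or lipid synthesis. Cytosolic ribosomal proteins took 1.351% in library 20 and 1.116% in library 15 over 60 listed genes of 81, led by Rplp1 with 1445 CPM in library 20 and 1725 CPM in library 15. Near-identical gene copies make the ribosomal share uncertain. Antioxidant enzymes took 2.115% in library 20 and 2.489% in library 15, mostly Gpx3. Of 25 immediate early genes, which respond to acute stimuli within minutes, 12 were listed and together took 0.0157% in library 20 and 0.0167% in library 15. Fos, Egr1 and Nr4a1 were among those not listed. Of 25 nuclear-retained and structured noncoding RNAs chosen for a list, 11 were listed and took 0.241% in library 20 and 0.407% in library 15. Among them the nuclear RNA Malat1 had 353.2 CPM in library 20 and 1090 CPM in library 15. The unnamed noncoding transcript left out of every share took 10.78% and 15.8% of all listed counts in libraries 20 and 15. Igf2bp2 itself had 16 counts in library 20 and 20 counts in library 15, which is 5.923 and 13.64 CPM.

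**Figure D2:**
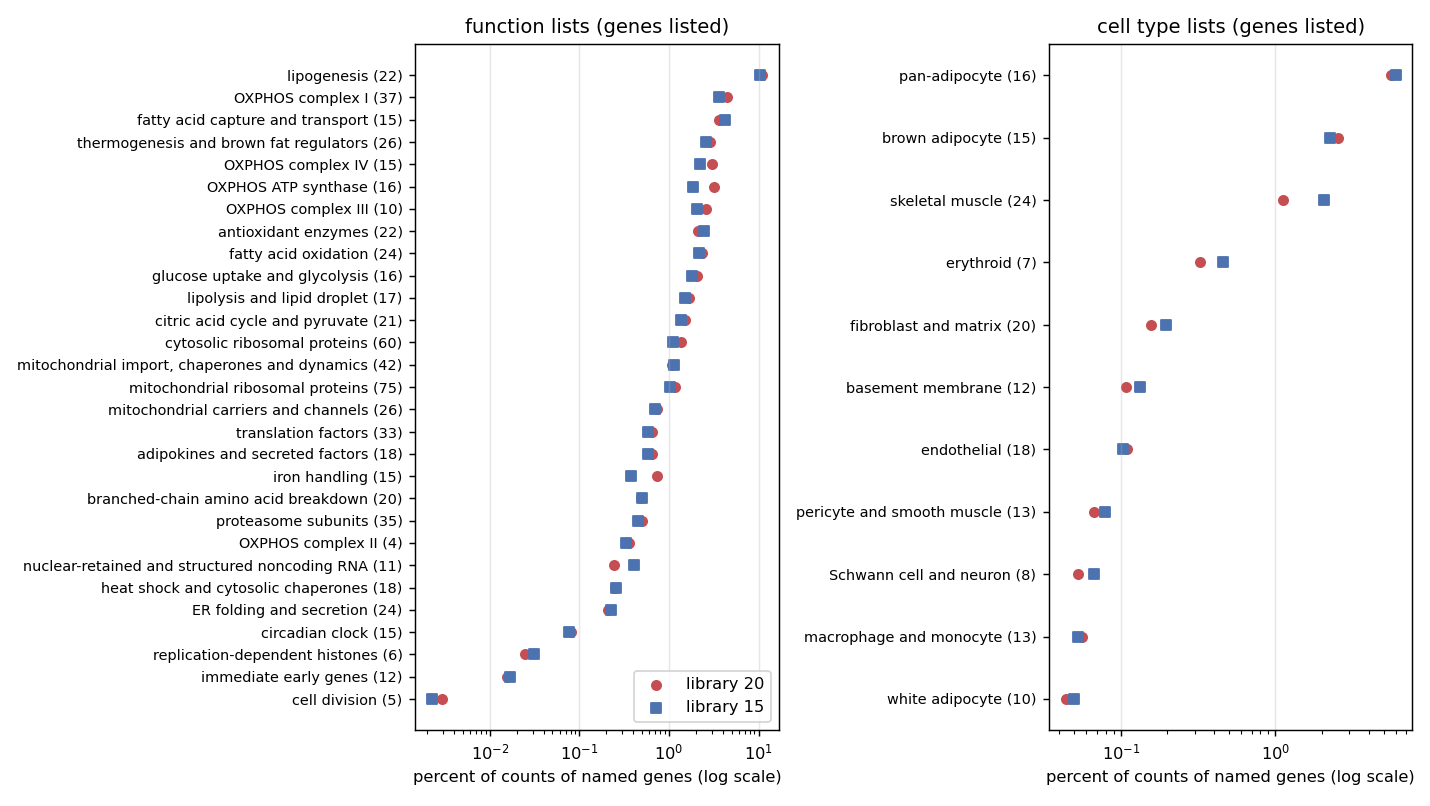
Percent of the counts of named genes taken by each list with at least 3 listed genes, with library 20 as circles and library 15 as squares on a log axis, and the number of listed genes in brackets. Lipogenesis leads at 10.97 and 10.41%, and skeletal muscle leads the cell types outside fat at 1.126 and 2.069%.

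Cell type markers were led by those of adipocytes, then by those of skeletal muscle. Pan-adipocyte markers took 5.588% of the counts of library 20 and 6.006% of those of library 15, and brown adipocyte markers 2.53% in library 20 and 2.267% in library 15. The adipocyte lists hold genes of the function lists as well, such as Lpl, Fabp4 and Ucp1. White adipocyte markers took 0.044% in library 20 and 0.0501% in library 15, with Retn, the adipokine resistin, at 280.6 CPM in library 20 and 194.3 CPM in library 15. All 13 lists of other cell types took 2.006% in library 20 and 3.164% in library 15. In bulk tissue, fewer cells of a type and less RNA per cell cannot be told apart.

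Skeletal muscle held the largest share of these: 1.126% in library 20 (1.113 to 1.138%) and 2.069% in library 15 (2.046 to 2.092%). All 24 muscle markers were listed. Ckm, muscle creatine kinase, had 1506 CPM in library 20 and 2498 CPM in library 15, and Acta1, skeletal actin, had 1182 CPM in library 20 and 2665 CPM in library 15. Tcap, a sarcomere protein, had 1322 CPM in library 20 and 2238 CPM in library 15. Both fast and slow fibre genes were read, since Myh4 of fast fibres had 441.6 CPM in library 20 and 1126 CPM in library 15, and Myh7 of slow fibres had 68.12 CPM in library 20 and 137.1 CPM in library 15.

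Blood, vessels and connective tissue were minor. Red cell genes took 0.327% in library 20 and 0.46% in library 15. Among them Hba-a1 and Hba-a2 carried the same counts, as did Hbb-b1 and Hbb-b2, so single copies cannot be separated and their reads count double in that share. Endothelial markers took 0.109% in library 20 and 0.103% in library 15, led by Egfl7 at 355.4 CPM in library 20 and 298 CPM in library 15. Fibroblast and matrix genes took 0.156% in library 20 and 0.196% in library 15, led by Sparc at 475.7 CPM in library 20 and 469.1 CPM in library 15. Macrophage markers took 0.0562% in library 20 and 0.053% in library 15, from 13 of 22 genes. None of the lymphocyte, lymph node and thymus, or mesothelial and epithelial markers was listed, and 2 of 12 hepatocyte markers were, at up to 25.91 CPM.

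The spread between libraries 20 and 15 was described gene by gene. Among 7248 genes with at least 10 counts in both, the median absolute log2 ratio of library 20 over library 15 was 0.38, or 1.3-fold, where counting error alone gives 0.19. Of these genes 9.851% differed by 2-fold or more, and Spearman's rho across genes was 0.921, given as a description since genes are not replicates. With rising counts, the median absolute ratio fell to 0.31 at 300 to 1000 counts and stood at 0.39 for the 89 genes over 3000 counts, where counting error alone gives 0.02.

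**Figure D3:**
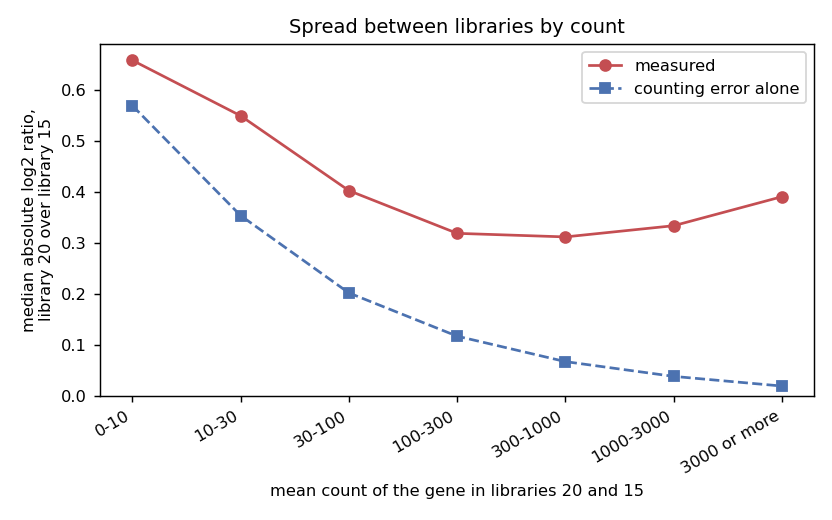
Median absolute log2 ratio of library 20 over library 15 in bins of mean count, as measured (circles) and as counting error alone would give (squares). The measured line stays at 0.31 or above, while the counting line falls to 0.019.

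Muscle and ATP synthase moved apart between these libraries. All 24 muscle genes were lower in library 20, with a median log2 ratio of -0.99, against a median of 0.03 over all genes, of which 48.35% were lower in library 20. ATP synthase genes had a median log2 ratio of 0.83, and 14 of 16 were higher in library 20. Atp5b, the catalytic beta subunit, had 5096 CPM in library 20 and 1484 CPM in library 15, and Atp5d, the delta subunit, had 6411 CPM in library 20 and 2115 CPM in library 15. Other subunits did not follow, since Atp5k had 2933 CPM in library 20 and 3174 CPM in library 15. Over all oxidative phosphorylation genes, 70 of 82 were higher in library 20, with a median of 0.54. These are 1 library a side, so there is no test.

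Genes outside those lists marked the ends of the ratio. Among 4128 genes with at least 100 counts over both libraries, the highest in library 20 was Edf1, a transcriptional coactivator, with 204 CPM in library 20 and 40.23 CPM in library 15. Agpat2, which builds phosphatidic acid for triglyceride, had 156.2 CPM in library 20 and 35.46 CPM in library 15. Mapk8ip1, Ppib, Snx22, Acp1, Rnf44, Aldoart1 and Hsd17b10 stood at the same end, with log2 ratios of 1.81 to 2.32. The highest in library 15 was Trdn, which anchors the calcium release channel of muscle, with 31.84 CPM in library 20 and 129.6 CPM in library 15. Ldb3, a sarcomere protein, and Casq1, the calcium store of fast muscle, stood next with log2 ratios of -1.92 and -1.80. The rest, with ratios of -1.63 to -1.77, were Prkce, Eef1a2, Anp32b, Nnat, Sc4mol, Apobec2 and Pkia.

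**Figure D4:**
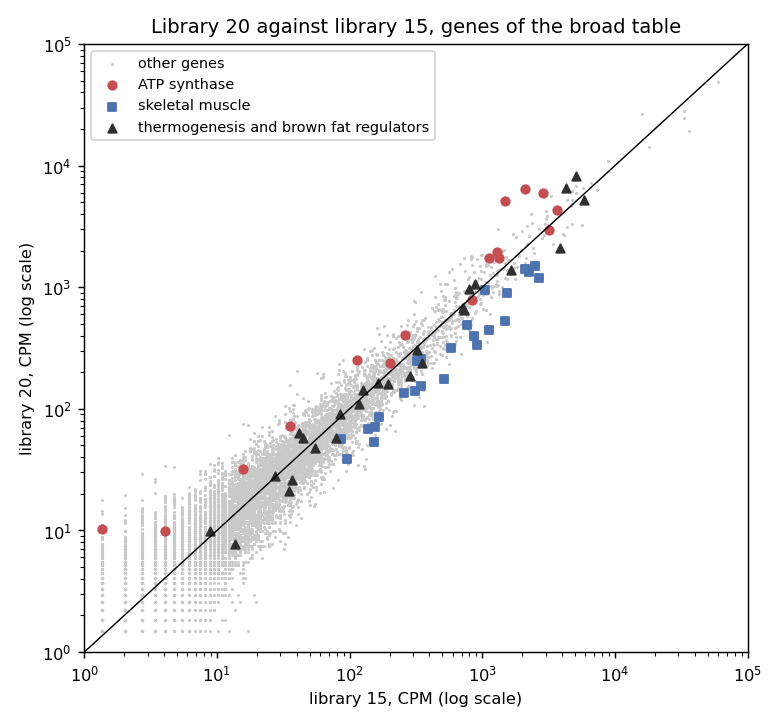
CPM of each gene in library 20 (vertical) against library 15 (horizontal) on log axes, with ATP synthase as circles, skeletal muscle as squares, thermogenesis genes as triangles and the diagonal as a line. All 24 muscle genes lie below the diagonal and 14 of 16 ATP synthase genes above it.

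Across all 4 libraries thermogenic genes as a list varied less than lipid synthesis, ATP synthase or muscle. The coefficient of variation (CV) of a list's share of shared-gene counts was 4.82% for thermogenic genes and 14.74% for lipid synthesis. It was 21.85% for ATP synthase and 72.63% for skeletal muscle. Fatty acid oxidation, at 2.825%, and translation factors, at 4.047%, varied less than thermogenic genes. These shares cover only genes that both tables list, 11 of 32 for thermogenic genes and 9 of 22 for lipid synthesis, without Scd1. Within the thermogenic list, Ucp1 was higher in libraries 20 and 15. By share of shared-gene counts alone, Cidea was higher in libraries 17 and 16. Values here are CPM of the 1189 genes that both tables list, so they are larger than the CPM above. Thrsp had 11820 and 11490 shared-gene CPM in libraries 20 and 15, against 11270 and 11740 in libraries 17 and 16, a CV of 2.17%. Fabp4 had 7910 and 8238 in libraries 20 and 15, against 9254 and 7984 in libraries 17 and 16. Both genes overlapped between the pairs. Fasn had 43670 and 27900 in libraries 20 and 15, against 25640 and 27510 in libraries 17 and 16, so library 20 stood above the others. Cox8b had 13480 and 8865 in libraries 20 and 15, against 9701 and 10290 in libraries 17 and 16, and Cidea had 10870 and 7426 in libraries 20 and 15, against 11830 and 11610 in libraries 17 and 16. On the TMM scale of the fit below, Cidea overlapped between the pairs. It had 11710 and 7591 CPM there in libraries 20 and 15, against 11190 and 11150 in libraries 17 and 16.

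Ucp1 and Cidec did not overlap between the pairs of libraries, which was so for 621 of the 1189 genes (52.2%) on the scale of the fit. Listed genes had a floor of counts in libraries 17 and 16 but not in libraries 20 and 15. Genes below that floor in libraries 17 and 16 are therefore missing from this share. Ucp1 had 8580 and 10060 shared-gene CPM in libraries 20 and 15, against 5356 and 5019 in libraries 17 and 16. Cidec, a droplet-fusing protein, ran the other way, with 1190 and 1326 in libraries 20 and 15, against 2719 and 3522 in libraries 17 and 16. The median CV of a gene over the 4 libraries was 18.2%, and 151 genes (12.7%) spanned 2-fold or more.

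Skeletal muscle genes differed most. They took 1.341% and 2.505% of shared-gene counts in libraries 20 and 15, against 1.026% and 0.261% in libraries 17 and 16, over the 8 genes both tables list. Of the 10 genes with the highest CV, 8 were muscle genes, led by Pvalb, a calcium buffer of fast fibres, with 875.9 and 2566 shared-gene CPM in libraries 20 and 15, against 984.5 and 248 in libraries 17 and 16, a CV of 84.4%. The 2 others were Ptk2b, a tyrosine kinase, and Ivns1abp. These, and the steadiest genes, were picked after their values were seen. The steadiest were Nploc4, Bckdha, Thrsp and Taldo1, an enzyme of the pentose phosphate pathway, with CVs of 1.43 to 2.67%.

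**Figure D5:**
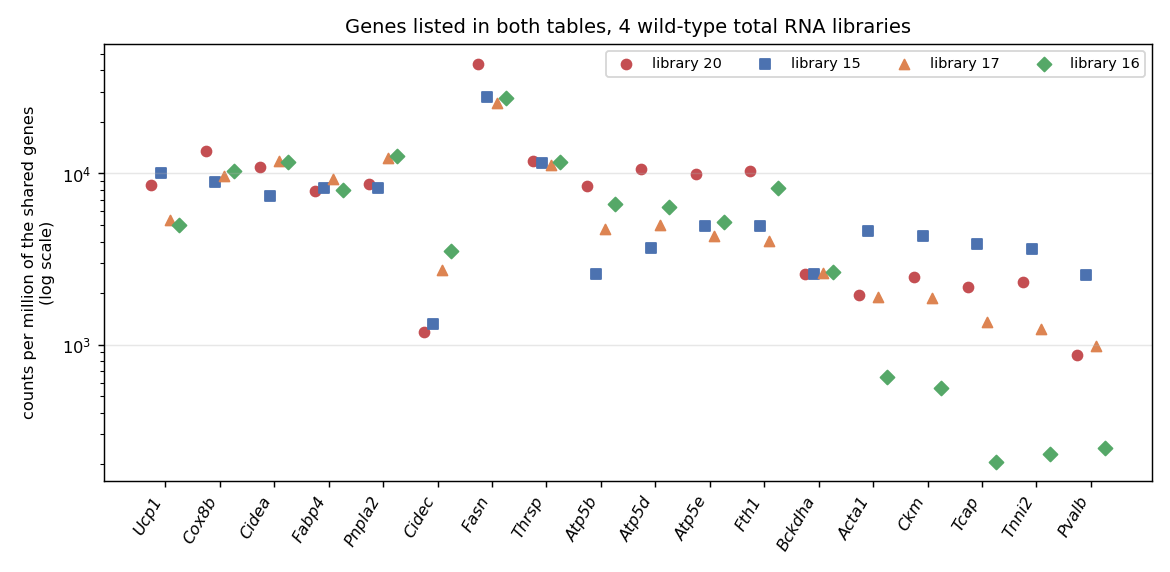
CPM of the genes both tables list, for 18 genes in the 4 wild-type total RNA libraries on a log axis, library 20, 15, 17 and 16 from left to right. Thrsp and Bckdha are nearly level, Ucp1 is at 8580 and 10060 in libraries 20 and 15 and at 5356 and 5019 in libraries 17 and 16, and the 5 muscle genes at the right spread most.

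Libraries 20 and 15 were also tested against libraries 17 and 16 with edgeR's quasi-likelihood test, which asks whether the pairs of the 2 tables differ beyond the spread within pairs. No gene of 1189 passed an adjusted p of 0.05 (percent called 0%), while 127 genes higher and 97 lower had an unadjusted p under 0.05. DESeq2 called 59 higher and 69 lower. Ucp1 averaged 9764 TMM-scaled CPM in libraries 20 and 15 and 4943 in libraries 17 and 16, a log2 fold change of 0.98 ± 0.23 (SE) with an adjusted p of 0.193 from edgeR. The other smallest p-values belonged to Fah, of tyrosine breakdown, Txnrd2, a mitochondrial thioredoxin reductase, Rgl2 and Tnnc2, fast troponin C, on the higher side, with log2 fold changes of 0.95 to 2.09. On the lower side they belonged to Glud1, glutamate dehydrogenase, Sh2d7, Nupr1, Ivns1abp and Stat5a, with fold changes of -1.06 to -1.70 on the log2 scale. The genes tested had a floor of counts in libraries 17 and 16 only. Ptk2b, for example, was kept with 24 counts in library 20 and 29 in library 15. A gene with so few counts in libraries 17 and 16 was not listed, so the higher and lower sides were not drawn alike. All 8 muscle genes were above 0, with a median log2 fold change of 1.66, and 0 of 8 passed. Leaving out library 20 gave 192 calls and leaving out library 15 gave 148, where the lone library is assumed to vary like the others. Leaving out library 17 or 16 gave 13 calls and 1. The part of muscle, of depth, of the count floor and of the unnamed transcript in these differences was not tested.

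The spread within pairs differed. For libraries 20 and 15 the common biological coefficient of variation over shared genes was 22.45%, for libraries 17 and 16 it was 14.18%, and for knockout libraries 18 and 19 it was 16.24%. The median absolute log2 ratio over shared genes was 0.32 for library 20 over 15, 0.16 for library 17 over 16 and 0.18 for library 19 over 18. Between tables it was 0.285 to 0.36. The 17 and 16 pair differed by 2-fold or more in 11 genes of 1189.

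Knockout brown fat was compared with wild type within the selected table, with 2 libraries a group. Igf2bp2 is not listed there, so the deletion itself was not checked. Of 1189 genes, 0 were higher and 1 was lower in knockout at an adjusted p of 0.05 by edgeR (percent called 0.0841%), and 58 and 64 had an unadjusted p under 0.05. DESeq2 called 22 higher and 23 lower. The values of the 2 genotypes did not overlap for 517 genes (43.5%). The gene called was Pabpc4, a poly(A)-binding protein, with 134.2 and 138.9 TMM-scaled CPM in knockout libraries 18 and 19, against 343.6 and 272.6 in wild-type libraries 16 and 17. Its log2 fold change was -1.18 ± 0.16 (SE), with an adjusted p of 0.0485 from edgeR. The call was lost with each of the 3 other scalings, with limma-voom and with summed transcripts. Without library 18, 19, 16 or 17 there were 5, 18, 23 and 14 calls, and Pabpc4 stayed among them. On the shared-gene scale Pabpc4 also differed within wild type, at 388.5 and 971.4 CPM in libraries 20 and 15, against 275.3 and 341.8 in libraries 17 and 16.

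The shares of oxidative phosphorylation, thermogenic and lipid synthesis genes overlapped between knockout libraries and the 4 wild-type libraries. Against wild-type libraries 16 and 17 alone, those of oxidative phosphorylation and thermogenic genes were higher in knockout without overlap. Of single genes, 43.5% did not overlap in that comparison, in either direction. Oxidative phosphorylation took 20.55% and 18.94% of shared-gene counts in knockout libraries 18 and 19, against 18.46% and 18.64% in wild-type libraries 16 and 17, and thermogenic genes took 4.12% and 4.05% in knockout, against 4.043% and 3.923% in wild type. Wild-type libraries 20 and 15 had 22.06% and 17.02% for oxidative phosphorylation and 4.39% and 4.096% for thermogenic genes. Lipid synthesis, over the 9 of its 22 genes that both tables list, took 6.6% and 11.12% in knockout, against 7.173% and 6.267% in wild type. Scd1 is not among the 9. Ucp1 had 5807 and 5529 TMM-scaled CPM in knockout libraries 18 and 19, against 5046 and 5304 in wild-type libraries 16 and 17, a log2 fold change of 0.13 ± 0.18 with an adjusted p of 0.844 from edgeR. Muscle genes took 0.0576% and 0.238% in knockout, against 0.261% and 1.026% in wild type, and all 8 had log2 fold changes between -2.37 and -1.72, none of which passed. The part of muscle in any of these differences was not tested.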

How the data were processed

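Total RNA of wild-type and Imp2-/- brown adipose tissue was sequenced in 6 libraries, of which 4 were wild type. RNA was extracted with Trizol, and the library kit is an Illumina TruSeq DNA kit, per the labels' protocols. TopHat2 2.0.8, Cufflinks 2.1.1 and build mm10 are named in the submitters' processing notes. The sources used here do not name the counting tool, its annotation, its strand setting, its treatment of reads that map to several places or the filter behind the selected table. The deposited values are whole-number counts per RefSeq transcript, and 6 columns of immunoprecipitates were not used.

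Transcripts without a symbol (835 in the broad table, 117 in the selected table) were named through RefSeq where possible (813 and 114), and the rest, nearly all of it 1 noncoding transcript, were left out. Each gene was represented by its transcript with the most counts, and in comparisons of the tables by the transcript both list, since for 7 genes each table's own choice differed in counts. CPM is the share of counts of named genes multiplied by 1000000. Lists held the genes chosen for 30 functions and 16 cell types. The tables' libraries were compared with edgeR 4.0.16 (TMM, filterByExpr, quasi-likelihood F test, Benjamini-Hochberg adjustment over 1189 genes, 2 residual degrees of freedom) in R 4.3.3. DESeq2 1.42.0 and limma 3.58.1 served as alternatives, and the edgeR step was tested on simulated data. Intervals are 95% exact binomial intervals. Promoter letters came from RefSeq GRCm38.p6, which had an entry for 11 of the 20 most-read genes.

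The members and lists were chosen with earlier results of these data known. Genes named were the 20 with the highest mean CPM in libraries 15 and 20, the marker genes and Igf2bp1 to Igf2bp3 where listed, up to 4 leading members of each list described, the 10 genes at each end of the ratio of library 20 over library 15, and, for each test, the 10 largest changes among called genes in a direction or, with fewer than 5 called, the 5 smallest p-values, with predicted genes left out of the last 2 parts. Other genes that are named were chosen after their values were seen. Some genes that the rule picks are not reported here. Alternatives were other scalings, filters, tools, transcript choices, denominators and the removal of each library.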

Additional observations from a re-analysis of the deposited data

Results flagged for a closer look

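Of 68 values checked over the 4 wild-type libraries, 6 had 1 library far from the other 3, judged by the gap to its nearest neighbour as a share of the whole range. Chance flags about 1 in 20 such groups. Complex III took 4.063% of shared-gene counts in library 20, against 3.401 to 3.438% in the other 3. Uqcr10, a subunit of that complex, had 10270 shared-gene CPM in library 20, against 8197 to 8389 in the others, and Fasn had 43670 in library 20, against 25640 to 27900. Schwann cell and neuron markers took 0.073% in library 15, against 0.05 to 0.0524%, over only 2 of 17 markers. Egfl8 was highest in library 15, at 510.5 shared-gene CPM against 180.6 to 285.2. S100b, also on the brown adipocyte list, was lowest in library 15, at 219.8 against 236.4 to 319.4. Pabpc4 had 971.4 in library 15, against 275.3 to 388.5, and Ctsd, a lysosomal protease, had 3191 in library 16, against 2702 to 2756.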

How the results depend on the processing

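With no filter on low counts, the median absolute log2 ratio of library 20 over library 15 was 0.44, and with at least 100 counts in both it was 0.315 and the rank correlation 0.899. The 10 most-read genes held 33.12% with unnamed transcripts included and 18.65% with summed transcripts, against 20.97% as reported. Lipogenesis held 8.97% with unnamed transcripts included, 1.865% without the 10 most-read genes and 8.709% with summed transcripts, against 10.69% as the mean of both libraries.

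Libraries 20 and 15 against 17 and 16 gave 128 calls with DESeq2 (59 higher and 69 lower), against 0 as reported, and 1 call with each table's own transcript, an alternative added after seeing the data, in which that gene had different transcripts in the 2 tables. Leaving out 1 library gave 1 to 192 calls. Knockout against wild type gave 45 calls with DESeq2 (22 higher and 23 lower), against 1 as reported, and 0 calls with summed transcripts, limma-voom or any of the 3 other scalings (relative log expression, upper quartile, library size). Leaving out 1 library gave 5 to 23 calls. The cause of these changes was not tested. Library-size scaling moved the median log2 fold change over all genes between the tables to -0.10, against 0.04 as reported.

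No paired analysis was possible because the sample numbers differ between all libraries. Values per transcript length were not run, because transcript lengths were not at hand. Depth limited genes with fewer than 10 counts, 768 in library 20 and 2031 in library 15.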
